A study of Mus musculus with 47 samples.

Results

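Htr2a and 7 further genes of the Gq cascade, 8 of the 22800 gene symbols of the count table, were read cell by cell in single NPY-positive neurons from auditory cortex (AC), CA3 and CA1. The genes were chosen by name, for their place in the cascade, with earlier results of these data known: the serotonin receptors Htr2a and Htr2c, the G protein alpha subunits Gnaq and Gna11, the phospholipase C beta enzymes Plcb1, Plcb3 and Plcb4, and the inositol trisphosphate receptor Itpr1. Of these 8 genes, 7 had a read in at least 1 of 26 cells, and 4 (Gnaq, Gna11, Plcb1 and Itpr1) were detected in 10 or more of the AC and CA3 cells. The question was which cells held Htr2a reads, and whether the same cells also held the genes that carry its signal.

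Serotonin receptors of the 5-HT2 class couple to G proteins of the Gq family. The activated alpha subunit, encoded by Gnaq or Gna11, switches on phospholipase C beta, which splits the membrane lipid PIP2 into diacylglycerol and inositol trisphosphate (IP3). IP3 opens its receptor on the endoplasmic reticulum and releases calcium, diacylglycerol activates protein kinase C, and in cortical neurons this cascade is known to depolarise cells and raise their excitability.

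Each library holds the polyA RNA of the cytosol that a patch pipette drew from 1 neuron, in layers 1 and 2 of AC or in the stratum lacunosum-moleculare of CA3. The layer of the CA1 cells is not given in the sources used here. All cells came from male and female mice of the NPY-hrGFP strain, in which a green fluorescent protein driven by Npy regulatory sequence marks cells, and the labels give 3 to 8 weeks of age for every cell, with no drug and no other genotype. Cortical slices were coronal and hippocampal slices horizontal, so that the slice plane and the region cannot be told apart. The cells used here are 10 of the 20 AC columns, 13 of the 21 CA3 columns and all 3 CA1 columns. The 13 CA3 cells are only part of the CA3 cells that the study itself plotted, and every CA3 share and level rests on them. Of the 8 mice used in all, none is named for any cell, so the cells of a region were taken as 1 sample, no test between regions was made, and SDs describe the spread over cells.

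The cells held 1715012 to 6265431 reads in AC, 2229519 to 7949918 in CA3 and 601781 to 3202430 in CA1. All 4 GABAergic markers (Gad1, Gad2, Slc32a1 and Npy) had reads in every region, and their summed level was at least 4376 CPM (counts per 1000000 reads of the cell) in every cell. Markers of other cell types were present too. The 6 microglial markers summed to 0 to 3819 CPM in AC and 0 to 1864 in CA3, with Tmem119 at 0 in both, and the 6 astrocyte markers to 0.247 to 1210 CPM in AC and 0 to 660 in CA3, with Aqp4 at 0 in both. The 6 oligodendrocyte markers reached at most 367 CPM in AC and 1043 in CA3, with Mog at 0, and the 7 pyramidal cell markers at most 190 and 384 CPM. In CA1 the highest sums were 1167 (astrocyte), 648 (pyramidal), 354 (oligodendrocyte) and 195 CPM (microglia). A glial list reached 1000 CPM in N4, N42 and N46 of AC, N27 and N39 of CA3 and N1 of CA1. Results without these cells are given for some genes only.

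Htr2a, which encodes the 5-HT2A receptor, lies on chr14:74640840-74709494 (GRCm38, plus strand), and the annotation places no other gene over it. Gnaq encodes the alpha subunit of Gq and lies on chr19:16132831-16387463 (plus strand), with 3 processed pseudogenes and a miRNA gene over it. Their start regions are shown because these are the receptor and the alpha subunit that were found together in AC cells, as given further on. Both are RefSeq windows of GRCm38.p6 that run from 250 bases before to 50 bases after the RefSeq start of the gene, chr14:74640624-74640923 for Htr2a and chr19:16132434-16132733 for Gnaq, read on the plus strand, and the capitals mark GGGCGG and its reverse complement CCGCCC, the core of the GC box.
Htr2a: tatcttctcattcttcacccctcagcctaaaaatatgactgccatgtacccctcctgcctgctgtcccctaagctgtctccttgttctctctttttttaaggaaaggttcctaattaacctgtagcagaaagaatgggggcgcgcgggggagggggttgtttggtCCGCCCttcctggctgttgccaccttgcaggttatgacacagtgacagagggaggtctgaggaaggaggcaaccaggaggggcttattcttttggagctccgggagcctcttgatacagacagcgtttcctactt
Gnaq: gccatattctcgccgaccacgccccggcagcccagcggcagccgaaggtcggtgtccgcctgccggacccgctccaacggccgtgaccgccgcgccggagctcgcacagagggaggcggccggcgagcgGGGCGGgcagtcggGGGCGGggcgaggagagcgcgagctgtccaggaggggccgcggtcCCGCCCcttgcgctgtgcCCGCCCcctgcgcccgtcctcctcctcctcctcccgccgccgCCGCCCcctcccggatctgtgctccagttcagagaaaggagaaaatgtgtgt

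The Htr2a window had a GC content of 52% and 6 CpG dinucleotides, and the Gnaq window 75% and 39. The medians over all 32851 windows of this length were 52.7% and 7, so the receptor gene lay at the median for GC and the G protein gene above it. The motif was found once in the Htr2a window, on the minus strand, and 5 times in that of Gnaq, 2 on the plus and 3 on the minus strand; 35.7% of all windows hold it on either strand. The match describes the letters only.

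In AC, Htr2a reads were found in 7 of 10 cells (70.0%, exact 95% Clopper-Pearson interval 34.8 to 93.3%). Cell N3X held 1728 Htr2a reads, N8 1429, N5 636, N46 627, N43 557, N4 110 and N7 1, and N41, N42 and N44 held none. The AC cells thus fell into 6 with at least 110 Htr2a reads and 4 with 0 or 1. In CA3, N37 held 543 Htr2a reads and N29 32, and the other 11 cells held none (2 of 13, 15.4%, 1.92 to 45.4%). A single cell, N37, gave 94.4% of the Htr2a reads of CA3, and its level of 127 CPM lay within the range of 64.1 to 426 CPM of the 6 AC cells. In CA1 the gene had 1 read in N6 and none in N1 and N2X.

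Summed over cells, the 5088 Htr2a reads of AC gave 149 CPM (exact 95% Poisson interval 145 to 154) and the 575 of CA3 gave 11.8 CPM (10.8 to 12.8), a ratio of 12.7 (11.6 to 13.9). The ratio rests on N37, since without it CA3 kept 32 reads (0.718 CPM) and the ratio was 208. Intervals of summed reads cover the counting of reads only, and those of shares treat cells as independent draws, so neither covers the spread over mice. The mean log2 level, log2(normalised count + 1), was 5.75 ± 4.75 (SD, n = 10 cells) for AC and 1.06 ± 2.70 (n = 13) for CA3. Their difference of 4.69 was smaller than the SD over AC cells, and each region held cells with the gene and cells without it. A level higher in AC by at least 1 on this scale, the size spoken of here as past the fold, was reached by 13.6% of the 13624 genes with any read in these cells. Over all labelled cells, 19 in AC and 21 in CA3, with the near-identical columns N4 and N4X averaged as 1 cell, the gene was found in 7 and 2 cells and the difference was 2.29. The 9 added AC cells had no Htr2a read, among them N45 with 5265115 reads and 6209 genes. A smaller volume of sampled cytosol and less RNA of a gene cannot be told apart in a single cell.

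**Figure D1:**
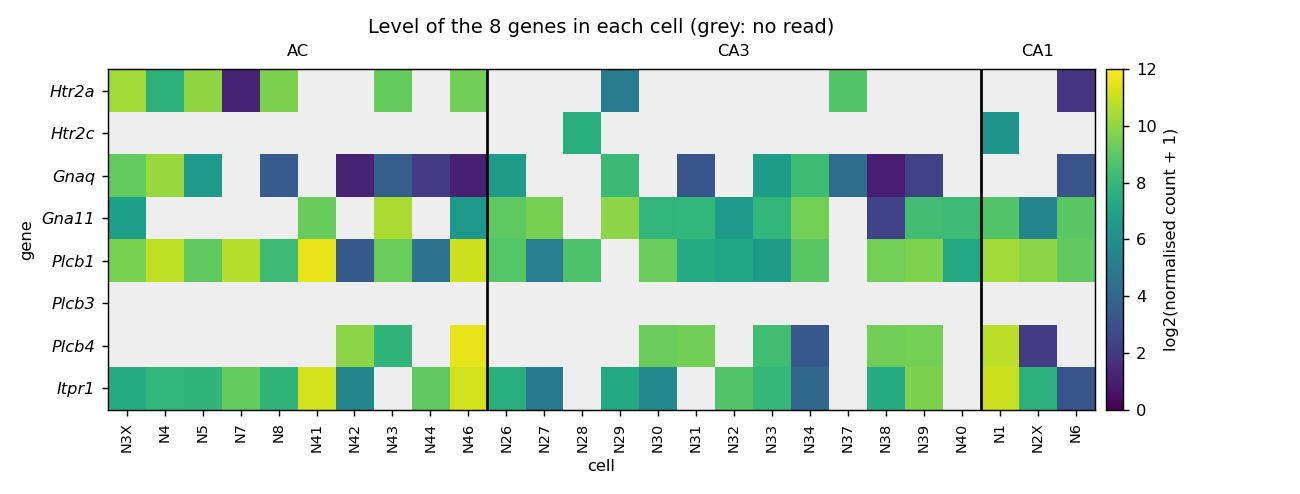
Heat map of the log2(normalised count + 1) of the 8 genes (rows) in each of the 26 cells (columns, grouped by region), with grey for cells without a read. Htr2a is coloured in 7 of 10 AC cells, 2 of 13 CA3 cells and 1 of 3 CA1 cells, and Plcb3 is grey throughout.

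Htr2c encodes the 5-HT2C receptor, also a Gq-coupled serotonin receptor, and lies on chrX:146962513-147197277 (plus strand) over 8 small RNA genes. It had no read in any of the 10 AC cells, where 3 reads in the whole region would give 0.0881 CPM and 0 of 10 cells allows a share of up to 30.8%. In CA3, N28 held all 137 Htr2c reads (2.80 CPM), and in CA1, N1 held all 13 (2.58 CPM). The summed CPM of the AC cells was therefore at least 31.8-fold lower than that of CA3, against a floor of 3 reads over the region, and the CA3 value rests on N28 alone. No cell held both Htr2a and Htr2c reads. Htr2b, the remaining gene of the 5-HT2 class and not a member here, had no read in any of the AC, CA3 or CA1 cells.

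Gnaq had reads in 8 of 10 AC cells, 8 of 13 CA3 cells and 1 of 3 CA1 cells. In AC the reads were 741 in N3X and 599 in N4, followed by 56 in N5, 18 in N8 and 11 in N43, while N44 held 3, N42 and N46 1 each, and N41 and N7 none. So 5 AC cells had at least 10 Gnaq reads, and each of these 5 was among the 6 cells with at least 10 Htr2a reads. The exception was N46, with 627 Htr2a reads and 1 Gnaq read. In CA3 the lowest, median and highest Gnaq counts were 0, 8 and 486, the last in N34, which held no Htr2a read.

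The summed level of Gnaq was 41.99 CPM (39.8 to 44.2) in AC and 20.6 (19.3 to 21.9) in CA3, and the mean log2 levels were 3.72 ± 3.69 and 3.10 ± 3.31. On summed CPM the ratio of 2.04 was 1.12 without N3X, 1.25 without N4 and 3.55 without N34. The difference of 0.62 in mean log2 level was below the fold and far below the SDs. It was -0.10 without N4, -0.05 with every cell thinned to 601781 reads, and -0.78 over all labelled cells, but 1.53 relative to the median difference of all genes, so no direction is given for Gnaq. With the cells thinned, Gnaq was found in 30% of the AC cells in place of 80%. In CA1, Gnaq had 3 reads, all in N6.

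Gna11 encodes G alpha 11, the close relative of the Gq subunit that couples to the same receptors, and lies on chr10:81528724-81545190 (minus strand) with no overlapping gene. In AC only N43 (1375 reads), N41 (567), N3X (147) and N46 (79) held Gna11 reads. In CA3 it was found in 11 of 13 cells, with a median of 317 reads and 1119 at most, and the 2 cells without it were N28 and N37. All 3 CA1 cells held Gna11, with 191 reads in N6, 73 in N1 and 40 in N2X. Gna11 was thus found in more CA3 and CA1 cells than Gnaq, and Gnaq in more AC cells than Gna11, though often at a few reads.

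The mean log2 level of Gna11 was 3.29 ± 4.39 for AC and 6.71 ± 3.53 for CA3, which differed by -3.42. Of the 5964 genes that were detected in 10 or more of the 23 AC and CA3 cells, 48.1% were lower in AC by at least 1 and 15.4% were higher, with a median difference over all of these genes of -0.91. Relative to that median, Gna11 was lower in AC by 2.51 (a difference of -2.51). The summed level differed less, at 63.7 CPM in AC against 100 CPM in CA3, a ratio of 0.636 (0.605 to 0.670). On that scale the log2 ratio was -0.65, which is below the fold. That value rests on N43, which gave 63.4% of the AC reads, since without it AC stood at 25.6 CPM and the log2 ratio was -1.96. Over all labelled cells the mean log2 difference was -1.45. The direction was the same in each case.

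**Figure D2:**
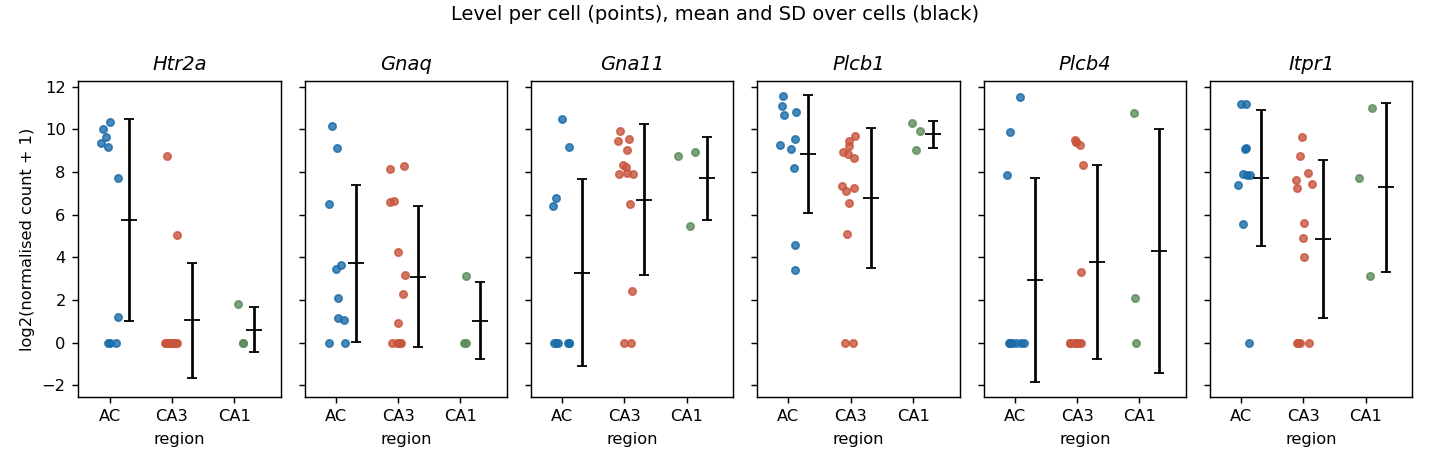
Log2(normalised count + 1) of 6 genes per cell (points) in AC, CA3 and CA1, with the mean and SD over the cells of a region in black. Htr2a and Gna11 have AC cells both at 0 and at high levels, while Plcb1 is above 0 in all 10 AC cells.

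Plcb1 encodes phospholipase C beta 1, the main isoform of the forebrain, and lies on chr2:134786067-135475258 (plus strand). The antisense genes 4930545L23Rik and 9630028H03Rik and a processed pseudogene lie over it, and the library kit does not mark strand, so their reads cannot be told apart where exons overlap. Plcb1 was the member found most often. It had reads in 10 of 10 AC cells, from 8 in N42 over a median of 772.5 to 2982 in N41, and in all 3 CA1 cells, at 218 in N1, 911 in N2X and 208 in N6. In CA3 it was found in 11 of 13 cells, with a median of 178 and a highest count of 2069 in N39, and the 2 cells without it were N29 and N37.

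The mean log2 level of Plcb1 was 8.83 ± 2.77 for AC and 6.79 ± 3.29 for CA3, which differed by 2.04, or by 2.95 relative to the median of all genes. The summed levels of 287 CPM (282 to 293) and 110 CPM (107 to 113) gave a ratio of 2.62 (2.53 to 2.71). The regions overlapped, since the AC cells N42 and N44, with 8 and 21 reads, lay below the 11 CA3 cells with Plcb1 reads. Leaving out single cells gave 1.48 to 2.65, and over all labelled cells the difference was 1.41.

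Plcb3 had no read in any of the 26 cells, and 3 reads over a region would give 0.0881 CPM in AC, 0.0614 in CA3 and 0.596 in CA1. This enzyme, phospholipase C beta 3, lies on chr19:6952325-6976470 (minus strand), where the protein-coding gene Ppp1r14b overlaps it. Plcb4, on chr2:135659011-136014593 (plus strand) just after Plcb1, encodes phospholipase C beta 4, best known from the cerebellum, thalamus and retina. It had reads in 3 of 10 AC cells (2787 in N46, 793 in N42 and 221 in N43) and in 6 of 13 CA3 cells (1819 in N39, 782 in N38, 669 in N31, 478 in N30, 421 in N33 and 14 in N34). In CA1 it had 300 reads in N1, 3 in N2X and none in N6. All 7 AC cells and 5 of the 7 CA3 cells without Plcb4 had Plcb1 reads.

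The mean log2 level of Plcb4 was 2.93 ± 4.79 for AC and 3.78 ± 4.54 for CA3. Their difference of -0.86 was below the fold, was 0.05 relative to the median of all genes and 0.38 as a log2 ratio of summed CPM (-1.38 without N46), so no direction is given. N46, N42 and N39 were among the cells with high glial markers, and without those cells the difference was -2.49. The part of the glial markers in this value was not tested.

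Itpr1 encodes the IP3 receptor type 1, the main neuronal form, which lies on chr6:108213096-108551109 (plus strand) with an antisense gene and 3 further noncoding or unclassified genes over it. It had reads in 9 of 10 AC cells, with a median of 318 and the highest counts in N41 (2235) and N46 (2204), and none in N43. In CA3 it was found in 9 of 13 cells, with a median of 38 reads, and N39 alone held 2039 reads, which is 60.4% of the reads of the region. The CA1 cells N1, N2X and N6 held 356, 194 and 3 reads.

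The mean log2 level of Itpr1 was 7.72 ± 3.20 for AC and 4.87 ± 3.69 for CA3, which differed by 2.85, or by 3.76 relative to the median of all genes. The summed levels were 186 CPM (181 to 190) and 69.0 CPM (66.7 to 71.4), with a ratio of 2.69 (2.58 to 2.81), or of 5.70 without N39. As a log2 ratio it was 0.955 without N46 and 0.997 without N41, both just below the fold. Unlike for Gnaq, the direction was the same with each cell left out (2.45 to 3.71), with the cells thinned (2.09), over all labelled cells (2.59) and without the cells of high glial markers (3.08). Of the 4 members found in 10 or more cells, Plcb1 and Itpr1 were therefore higher in AC, Gna11 was lower and Gnaq was within the fold, beside 15.4% of all genes higher and 48.1% lower.

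Taking the steps together, 6 of the 7 AC cells with an Htr2a read also had reads on Gnaq or Gna11 (85.7%, 42.1 to 99.6%). All 7 had reads on a phospholipase C beta gene, 6 had both, 6 had Itpr1, and 5 had every step. The cell without an alpha subunit was N7, whose Htr2a count was 1 read, and the cell without Itpr1 was N43. With at least 10 reads asked of every gene, 6 of 6 Htr2a cells had an alpha subunit, 6 of 6 a phospholipase C beta gene and 5 of 6 Itpr1. The same genes were common in AC cells in general: over all 10 cells, 9 had an alpha subunit, 10 a phospholipase C beta gene, 9 Itpr1 and 8 all of these downstream steps. At the limit of 10 reads the alpha subunits were in 7 of 10 cells, which were the 6 Htr2a cells and N41. The alpha subunits read in Htr2a cells varied. N3X and N43 had at least 10 reads of both Gnaq and Gna11, N4, N5 and N8 had Gnaq alone, and N46 had 79 Gna11 reads and 1 Gnaq read.

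In CA3, both cells with Htr2a reads had an alpha subunit, with 284 Gnaq and 957 Gna11 reads in N29 and 23 Gnaq reads in N37. Neither had a read on Plcb1, Plcb3 or Plcb4, although 11 of the 13 CA3 cells had one. N29 and N37 were the 2 CA3 cells without it, and they are but 2 cells, for which 0 of 2 allows a share of up to 84.2%. N29 and N37 held 3166810 and 4268889 reads and 6699 and 5699 genes, and why they lacked phospholipase C beta reads was not tested.

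Other phospholipase C genes were read in both. N37 held 1241 reads on Plcg1, the isoform driven by receptor tyrosine kinases, and 1037 on Plch2, a calcium-sensitive isoform. N29 held 392 on Plch2, 275 on Plcd4, 23 on Plcl2, 19 on Plcg1 and 1 on Plce1. The cells differed in further genes, picked after their values were seen. N29 held all 2075 Htr3a reads of the region, the ionotropic serotonin receptor gene, and none on Lhx6, the transcription factor of medial ganglionic eminence interneurons that 12 of 13 CA3 cells held. Prox1, a transcription factor of caudal ganglionic eminence interneurons that 2 of 13 CA3 cells held, had no read in N29 or N37. N37 held 1156 Lhx6 reads and 424 on Htr7.

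In CA1, N6 had 1 Htr2a read beside 3 Gnaq, 191 Gna11, 208 Plcb1 and 3 Itpr1 reads. Against AC, the summed Htr2a level of CA1 was 0.199 CPM (0.00503 to 1.11), a ratio of 0.00133 (3.37e-05 to 0.00741). The mean log2 difference of CA1 minus AC was -5.14 for Htr2a, -2.68 for Gnaq, 4.42 for Gna11, 0.94 for Plcb1 and -0.44 for Itpr1. For Itpr1 it ran from -2.31 without N1 to 1.65 without N6, so no direction is given. With 3 cells, differences of at least 1 either way were common, at 68.5% of 6597 genes between CA1 and AC and 69.8% between CA1 and CA3. CA1 minus CA3 gave -0.45 for Htr2a, -2.06 for Gnaq, 1.00 for Gna11, 2.98 for Plcb1 and 2.42 for Itpr1. That of Htr2a was 0.19 without N37, while its ratio of summed CPM was 0.0169, from 1 CA1 read. That of Itpr1 was 0.54 without N1. On summed CPM the sign turned for Gna11 (log2 ratios of -0.076 against AC and -0.73 against CA3) and for Plcb1 against AC (-0.11).

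**Figure D3:**
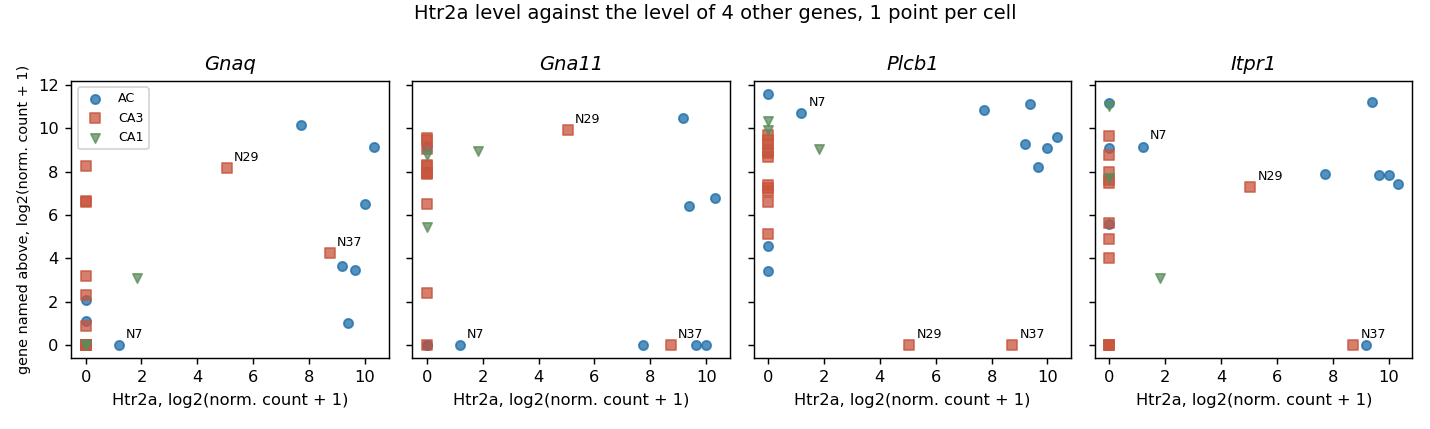
Htr2a level (x axis) against the level of Gnaq, Gna11, Plcb1 and Itpr1 (y axis), both as log2(normalised count + 1), 1 point per cell, with circles for AC, squares for CA3 and triangles for CA1. The CA3 cells N29 and N37 sit at 0 for Plcb1, and N7 of AC, with 1 Htr2a read, sits at 0 for Gnaq and Gna11.

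Levels of different genes can be compared per length. As reads per kilobase of exon and 1000000 reads (RPKM) over the summed reads of AC, Htr2a stood at 26.7, Plcb1 at 25.9, Gna11 at 15.5, Plcb4 at 12.4, Itpr1 at 10.1 and Gnaq at 6.79. In AC the receptor transcript was thus at about the level of its enzyme and above both alpha subunits. In CA3 the order was Gna11 at 24.4, Plcb1 at 9.87, Plcb4 at 9.54, Itpr1 at 3.77, Gnaq at 3.33, Htr2a at 2.10 and Htr2c at 0.301. Without N37, Htr2a in CA3 was at 0.128, below Htr2c. Without N39, Itpr1 in CA3 was at 1.78, and without N34, Gnaq was at 1.91, below the 2.10 of Htr2a. In AC, Gna11 was at 6.26 without N43, Plcb4 at 3.67 without N46 and Gnaq at 3.71 without N3X. Neighbours in these orders cannot be told apart given the spread over cells, and with the length of the longest transcript Plcb1, at 39.9, stood above Htr2a in AC. Htr2a had the same value under both lengths, since its longest transcript covers all its exons.

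**Figure D4:**
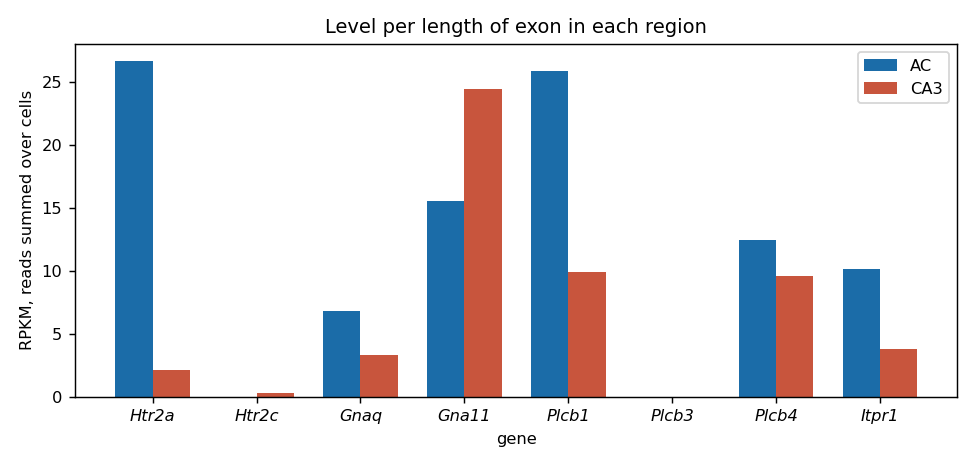
Bars give the RPKM of each gene, from reads summed over the 10 AC or 13 CA3 cells and the union of its exons. Htr2a goes from 26.7 in AC to 2.10 in CA3, while Gna11 goes from 15.5 to 24.4. Without N37 the Htr2a value of CA3 is 0.128, and without N43 the Gna11 value of AC is 6.26.

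Htr2a is 1 of many receptors that use Gq. Of the 29 Gq-coupled receptors looked at (Htr2a, Htr2c and 27 others), Htr2a ranked 3rd per length in AC at 26.7 RPKM, after the histamine receptor Hrh1 (44.9, 6 of 10 cells) and the glutamate receptor Grm5 (36.1, 9 cells), and next to the orexin receptor Hcrtr2 (26.4, 6 cells). It was 4th by CPM, and on that scale the place of Hrh1 above Htr2a rests on N8, which held 54.7% of the Hrh1 reads. Without N8, Hrh1 stood at 111 CPM and Htr2a at 132, while the order per length without N8 was not worked out. In CA3, Htr2a ranked 7th by either measure, and the highest per length were the bombesin-type receptor Nmbr (46.2 RPKM, 8 of 13 cells) and Grm5 (26.7, 12 cells). The 7th place rests on N37, since Htr2a stood at 0.718 CPM without that cell, below Htr2c at 2.80 CPM. Every one of the 26 cells had at least 1 other Gq-coupled receptor. The cells without Htr2a thus did not lack Gq-coupled receptors: N41, N42 and N44 of AC each had 2, and their Grm5 counts were 2396, 2696 and 2266 reads. Of the 27 other receptors, 3 were found in 10 or more cells, and they differed between AC and CA3 by less than the fold (Hcrtr2 0.76, Grm5 0.11 and Chrm1 -0.35), beside 15.4% of all genes higher and 48.1% lower in AC. Relative to the median of all genes, Hcrtr2 (1.67) and Grm5 (1.02) passed the fold.

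Among the 14 serotonin receptor genes, 10 had a read in the 26 cells and none passed the limit of 10 AC and CA3 cells. Htr2a led in AC, where the next were Htr7 (23.9 CPM, 2 of 10 cells), which couples to Gs, and Htr1f (8.22 CPM, 2 cells), which couples to Gi. Both values rest mostly on 1 cell, as N43 held 86.9% of the Htr7 reads and N8 92.1% of the Htr1f reads. Htr1b, also Gi-coupled, was found in 3 AC cells at 2.03 CPM and in no CA3 cell. In CA3, Htr7 was found in 6 of 13 cells (40.01 CPM) and Htr5a in 4 (22.3 CPM, 84.0% of its reads from N28), both in more CA3 cells than Htr2a. The highest summed level there was that of Htr3a (42.5 CPM), all of it from N29. In CA1, N2X held 1070 reads of Htr1a, a Gi-coupled receptor that had 1 read in AC and none in CA3.

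The further genes of the pathway were taken from lists that hold 143 symbols in all, of which 140 are in the table, 114 had a read in the 26 cells and 51 passed the limit of 10 cells. Of these 51, 15 (29.4%) were higher in AC by at least 1 and 12 (23.5%) were lower, beside 15.4% and 48.1% of all genes. The balance depended on the setting, with 27 higher and 9 lower relative to the median of all genes, beside 29.3% and 29.6% of all genes. Over all labelled cells 9 were higher and 14 lower, beside 6.95% and 54.5% of 7442 genes. That setting also used library size factors and let other genes pass the limit, so its counts cannot be set beside the 51. The median difference of the 51 genes was 0.11, where that of all genes was -0.91. The lists overlap with the members described above, and they were chosen with earlier results known.

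Of the 14 phospholipase C genes, 11 had reads and 5 passed the limit. Of these 5, 3 were higher and 2 lower in AC, beside 15.4% and 48.1% of all genes. Plcd4, a calcium-driven isoform, was at 4.98 ± 3.53 for AC and 1.65 ± 3.00 for CA3 on the log2 scale, and so differed by 3.33. Plch2 was lower in AC at -2.17, and -1.26 relative to the median of all genes. Plcl2, a relative without catalytic activity, was at -1.41, but at -0.50 relative to that median and 0.36 as a log2 ratio of summed CPM, so no direction is given for it. Thus no single direction held over this family, as Plcb1 was higher in AC and Plch2 lower. Of the 17 genes for IP3 receptors and calcium stores, 6 passed, 3 were higher and none was lower, beside the same shares of all genes. Next to Itpr1 the largest difference was that of Homer1 (2.67), the scaffold that links group I metabotropic glutamate receptors to IP3 receptors.

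The 19 genes of phosphoinositide and IP3 metabolism had the widest range. Of the 12 that passed, 3 were higher in AC and 4 lower, beside 15.4% and 48.1% of all genes. Itpkc, a kinase that phosphorylates IP3, differed by 3.40 and Cds1, which makes CDP-diacylglycerol, by 2.66. Cdipt, which builds phosphatidylinositol from that product, differed by -4.95, found in 3 of 10 AC cells against 10 of 13 in CA3, and Impa1, the inositol monophosphatase, by -4.41, found in 2 AC cells against 10. Cds2, which catalyses the same step as Cds1 and was picked after its value was seen, differed by -2.64, so the genes of that step lay on both sides.

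Of the 20 genes for diacylglycerol and protein kinase C, 11 passed, 4 were higher and 3 lower, beside 15.4% and 48.1% of all genes. Prkcb, a conventional protein kinase C, was found in 10 of 10 AC cells at 9.44 ± 1.28 and in 12 of 13 CA3 cells at 7.07 ± 3.58, a difference of 2.36. The diacylglycerol kinases split, with Dgkg at 2.08 and Dgkb at -2.04, and Daglb, a diacylglycerol lipase, was at -1.57, or -0.66 relative to the median of all genes. As log2 ratios of summed CPM, Prkcb (0.80), Dgkg (0.39) and Dgkb (-0.15) were within the fold. Among the Gq regulators, 15 of 18 symbols were in the table and 9 passed. Of those, 2 were higher and 1 lower, beside the same shares of all genes. Adrbk1, the receptor kinase GRK2, differed by 2.86, and Rgs4, which speeds GTP hydrolysis by Gq and Gi, by 2.41. Rgs8, of the same family, differed by -4.67, found in 2 of 10 AC cells against 11 of 13 in CA3. Apart from Cdipt, Impa1 and Rgs8, the differences named in these lists were smaller than the larger SD over cells, and none was tested.

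**Figure D5:**
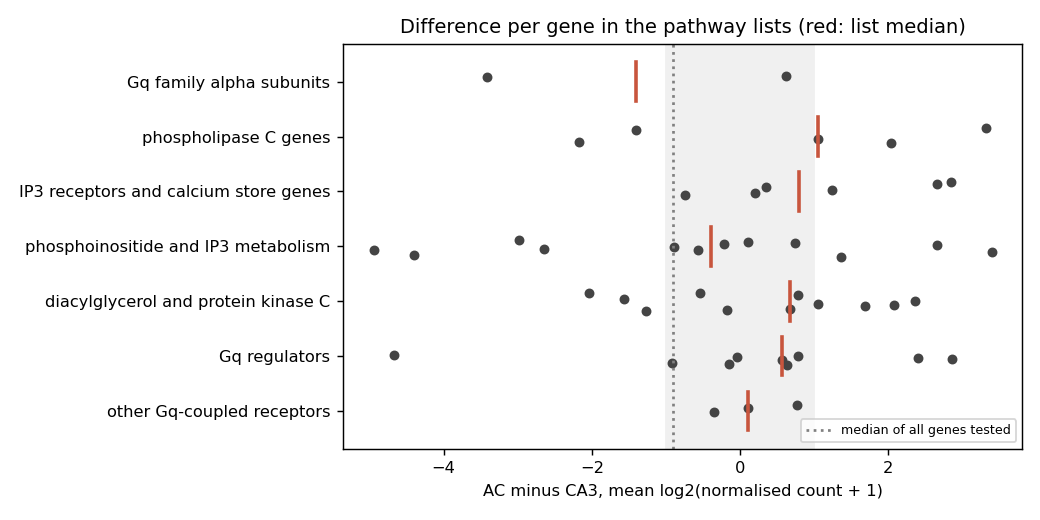
Difference of the mean log2(normalised count + 1), AC minus CA3, for each gene found in 10 or more cells (points) in 7 lists, with the list median in red, the range within the fold shaded and the median of all genes dotted. List medians run from -1.40 for the 2 alpha subunits to 1.05 for phospholipase C genes.

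The genes most like Htr2a were sought by 2 measures. By presence or absence over the 26 cells, the highest agreement among 9493 genes was 22 cells in the same state, reached first by Lrp8, an apolipoprotein E and reelin receptor, then Coro6, Adcy9, Shisa9 and Mipep, in order of r. Shisa9, an auxiliary AMPA receptor subunit, was found in 8 AC cells and 1 CA3 cell. Among the members, Gnaq was in the same state as Htr2a in 17 of 26 cells, a number that 1119 of the 9493 genes reached, and Gna11 and Plcb1 in 8. Shared absence counts here, so that Plcb3, which had no read, stood at 16, and at 18 with the limit of 10 reads given next. This depends on the limit for Gnaq. With 10 reads asked of every gene, a limit applied here after the data were seen, Gnaq was in the same state as Htr2a in 21 of 26 cells, where the highest of the 9493 genes reached 23 and 42 reached 21 or more, while Gna11 stood at 9 and Plcb1 at 7.

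By level over the 10 AC cells, Pearson's r was highest for Sik3 (r = 0.98, rho = 0.93), Nudt16l1 (0.98, 0.84), Lrp11 (0.97, 0.75), Herc3 (0.97, 0.66) and Psmb2 (0.97, 0.61) of 4589 genes. Without N41 and N42, which were among the cells farthest from the median Htr2a level, r was 0.94 to 0.98 for these 5 genes. The members stood at 0.64 (Gnaq), 0.40 (Plcb1), 0.20 (Gna11), 0.06 (Plcb4) and -0.26 (Itpr1). These are descriptions of 10 cells that fall into a group with Htr2a and one without it, they share depth and scaling, and the highest of so many values is high by selection.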

How the data were processed

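The values are raw counts of reads per gene symbol, which the authors deposited in 1 table without normalization. The study's methods name Trimmomatic, Flexbar, STAR, the Ensembl GRCm38 reference and HTSeq, while the submitters' processing notes name featureCounts as the counter. Where several identifiers shared a symbol their counts were averaged, and the Nextera XT libraries do not mark strand.

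Counts were scaled with computeSumFactors of scran 1.30.0 (pools of 10 and 20, R 4.3.3) over the 26 cells, and levels are log2(normalised count + 1). The cells were those that an earlier comparison of the count table with the study's plotted values had singled out. Genes were compared with a read in at least 10 cells. No test between regions was made, since no cell is tied to a mouse. Dixon's criterion over the 10 AC cells served only to flag cells that stand apart, and treats cells as independent. Intervals are exact Poisson (summed reads) and exact Clopper-Pearson (shares), at 95%, which cover read counting or the number of cells only. Depth was 601781 to 7949918 reads per cell. Positions and exon lengths came from GENCODE vM21 by symbol, and promoter windows, found for 7 of the 8 genes (not Itpr1), from RefSeq.

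The members and lists were chosen with earlier results of these data known. Named were all 8 members, the 2 genes of each list with the largest difference in each direction past the fold, and the 5 genes most like Htr2a by each of 2 measures. Single values of 2 listed genes are left out of the text, and counts over lists still include them. Alternatives were TMM factors (edgeR 4.0.16), poscounts size factors (DESeq2 1.42.0), library size, pseudocounts of 10 and 0.1, summed CPM, thinning to the lowest depth, at least 10 reads, all labelled cells, no filter, values relative to the median of all genes, the longest transcript, and each cell left out. Leaving out cells with a glial or pyramidal marker list of at least 1000 CPM, N4X in place of N4, summed CPM with each cell left out, and the states of cells at 10 reads were chosen after seeing the data. The columns N4 and N4X (r = 0.9998) may be the same cell, N4 was used alone, and they were averaged as 1 cell where all labelled cells were taken. All labelled cells, and thinned cells, were scaled by library size, and other genes pass the limit of 10 cells there. The calculation of differences and intervals was run on simulated counts, scaled by library size and with set differences larger than most given here. This checks the calculation only, and not how the cells of these data behave. Python 3.11.15, numpy 2.4.6, pandas 2.3.3, scipy 1.17.1 and matplotlib 3.10.9 were used.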

Additional observations from a re-analysis of the deposited data

Results flagged for a closer look

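Itpr1 had a log2 level of 0 in AC cell N43, where the other 9 AC cells had reads, and lay farther from the rest than the spread of the 10 cells would allow by Dixon's criterion. The criterion treats the cells as independent draws. Of 6 genes examined in AC this way, 1 was flagged, and chance flags about 1 in 20. N43 held 557 Htr2a, 1375 Gna11 and 592 Plcb1 reads.

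Outside the regions compared, the dentate gyrus column N12 held 70 Gnaq reads and 52 Gna11 reads of 190573 in all, where 3 reads would give 15.7 CPM, and none on the other 6 members. The column labelled as an NPY-negative CA3 cell, N16, held 21 Gna11 reads and 1 Gnaq read of 291745, where 3 reads would give 10.3 CPM. The second dentate gyrus column, N11, with 89297 reads, held none on any member. None of these 3 columns had an Htr2a read.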

How the results depend on the processing

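No paired analysis was possible because the labels give no replicate numbers and name no mouse. With other size factors, pseudocounts or thinning, the levels of the members between AC and CA3 moved by less than the SD over cells. That is a wide limit, as the SD was 4.75 for Htr2a in AC, and Gnaq changed sign with thinning. As log2 ratios of summed CPM, Gna11 was -0.076, Plcb1 -0.11 and Plcb4 -0.89 (CA1 minus AC), and Htr2a -5.89 (from 1 CA1 read), Htr2c -0.12 and Gna11 -0.73 (CA1 minus CA3). For Htr2c in AC, with no read, a floor of 3 reads over the region gave a bound of -4.99 (AC minus CA3). Without the cells of high glial markers, Plcb4 was -0.084 for CA1 minus AC, Htr2c -0.69 for CA1 minus CA3, and Htr2c was in 0% of CA1 cells. The cause was not tested. At 10 reads or more, Htr2a and Gnaq were in 0% of CA1 cells, and after thinning Htr2a was in 0% of CA1 cells and Gnaq in 30% of AC cells.

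Relative to the median of all genes, 27 of the pathway genes were higher in AC and 9 lower, beside 29.3% and 29.6% of all genes. With no filter 33 of 114 were higher and 22 lower, beside 13.6% and 32.8%. Over all labelled cells, scaled by library size and with 7442 genes tested, 9 were higher and 14 lower, beside 6.95% and 54.5%. The median of the alpha subunits was 0.12 with no filter and 0.19 on summed CPM, and that of the phospholipase C genes -0.20 with no filter, where more genes enter. By the longest transcript, the RPKM in AC was 39.9 for Plcb1, 21.4 for Plcb4, 18.8 for Itpr1, 18.6 for Gna11 and 7.44 for Gnaq, and in CA3 29.3 for Gna11, 16.4 for Plcb4, 15.2 for Plcb1, 6.99 for Itpr1, 3.64 for Gnaq and 0.574 for Htr2c.

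Leaving out each cell gave -1.89 to 3.502 for Plcb4 (CA1 minus AC) and -0.58 to 2.56 for Htr2c (CA1 minus CA3), with the lowest value without N1. In CA3, 1 to 2 Htr2a cells, 1 to 2 with an alpha subunit and 0 to 1 with Itpr1 remained. The share with Itpr1 in AC was 88.9 to 100%, with Htr2c in CA3 0 to 8.33%, and in CA1 0 to 50% for Htr2a, Htr2c and Gnaq and 50 to 100% for Plcb4.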

Other observations

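In the NPY-positive columns of AC and CA3 outside the 23 cells used above, most members were found in a smaller share of cells. In the 9 such AC cells, N4X apart, Htr2a and Htr2c had no read, Gnaq had reads in 1 cell, Gna11 in 3, Plcb1 in 4, Plcb4 in 1 and Itpr1 in 4. Their totals ran from 40934 to 6235022 reads with a median of 595759. Among them, N45 held 543 Gnaq, 180 Gna11, 313 Plcb1, 621 Plcb4 and 1634 Itpr1 reads. In the 8 such CA3 cells, with 111958 to 2467435 reads, Htr2a, Htr2c and Plcb4 had none, Gnaq had reads in 3, Plcb1 in 2, Gna11 and Itpr1 in 1, and Plcb3 had 3 reads in N13.

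A pair of these AC columns held very many reads of 1 member. N47 held 15562 Plcb1 reads (2496 CPM) and no Itpr1 read, and N48 held 16233 Itpr1 reads (3161 CPM) beside 711 of Plcb1. N47 and N48 had 6235022 and 5135021 reads but 1719 and 1814 genes. Among the cells used above, the highest counts were 2982 for Plcb1 and 2235 for Itpr1.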
